A study of Homo sapiens with 6 samples.

Results

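The human mitochondrial genome, a small circular DNA present in many copies per cell, carries 37 genes, and all 37 were measured by RNA-seq in SKM-1 cells expressing mutant or wild-type U2AF1. They were taken as the genes whose name starts with MT-, 37 of the 31142 genes in the deposited table, and comprise 13 protein genes, 2 rRNA genes and 22 tRNA genes. SKM-1 is an established human line of acute myeloid leukemia that arose from a myelodysplastic syndrome, and U2AF1 is a splicing factor that recognizes the 3′ splice site of nuclear introns. SKM-1 cells were stably transduced with a lentivirus for FLAG-tagged U2AF1, and the labels give 3 libraries with S34F mutant U2AF1 and 3 with the wild type (WT), after 96 h. The vector drives U2AF1 from a ubiquitin promoter and carries GFP and puromycin resistance. The WT sample names carry the prefix NC, which the study also uses for negative controls, and its methods speak of a vehicle control, so whether the WT libraries carry the transgene could not be settled. Grouping followed the wild-type U2AF1 in the sample titles. The study describes its RNA samples as independent and the cells as treated in triplicate, without saying whether each library came from a separate culture, so each p-value measures the spread between libraries, which may be technical.

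Mitochondrial genes are transcribed by a dedicated polymerase, POLRMT, from both strands of the circle into long precursors, and most mRNAs and rRNAs are freed by cutting out the tRNAs that lie between them. The protein products are core subunits of respiratory chain complexes I, III and IV and of the ATP synthase, complex V, and all are translated inside the organelle on ribosomes built around the mitochondrial rRNAs. No gene of this genome has an intron, so none is itself a substrate of the spliceosome that U2AF1 serves, whereas every protein that replicates, transcribes, cuts, modifies and translates the mitochondrial RNAs is imported and encoded in the nucleus.

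On the plus strand of the reference mitochondrial sequence lie 28 of the genes, and 9 lie on the minus strand, namely MT-ND6 and 8 tRNA genes. The tRNA genes span 59 to 75 bases. Of the 6 genes with an unadjusted p under 0.05 between the groups, described further on, 5 are tRNA genes, and their sequences are given 5′ to 3′ in DNA letters with the anticodon in capitals (GENCODE 29, GRCh38). The glutamine tRNA MT-TQ (chrM:4329-4400) is read from the minus strand, and the glycine tRNA MT-TG (chrM:9991-10058), the histidine tRNA MT-TH (chrM:12138-12206), the serine tRNA MT-TS2 (chrM:12207-12265) and the leucine tRNA MT-TL2 (chrM:12266-12336) from the plus strand. The last 3 follow each other without a base between them.
MT-TQ: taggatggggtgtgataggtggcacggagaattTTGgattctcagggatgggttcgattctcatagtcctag
MT-TG: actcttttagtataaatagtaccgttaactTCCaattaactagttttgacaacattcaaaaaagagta
MT-TH: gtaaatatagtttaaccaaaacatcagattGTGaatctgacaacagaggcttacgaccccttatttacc
MT-TS2: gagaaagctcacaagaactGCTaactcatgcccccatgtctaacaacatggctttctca
MT-TL2: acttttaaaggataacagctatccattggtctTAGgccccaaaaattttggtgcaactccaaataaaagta

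MT-ATP8 and MT-ATP6 share 46 bases (chrM:8527-8572), and MT-ND4L and MT-ND4 share 7 (chrM:10760-10766). Fragments from these stretches belong to both genes of a pair, which is why the overlaps are shown, with the start codon of the downstream gene in capitals.
MT-ATP8 and MT-ATP6 overlap: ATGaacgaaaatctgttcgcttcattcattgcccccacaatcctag
MT-ND4L and MT-ND4 overlap: ATGctaa

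The values were FPKM (fragments per kilobase of transcript, relative to library size), which are scaled to gene length. Scaling does not make short genes fully comparable with long ones, so orders of level between genes are given as descriptions of these values. Depth, read from the value of 1 fragment in short genes, was between about 20.7 M and 26.0 M fragments per library. Of 12 erythroid markers, 9 had a mean FPKM of at least 10, and their summed FPKM was 11524 to 13142 in S34F and 11244 to 12112 in WT. Of 12 monocytic and myeloid markers, 7 were under 1 FPKM, among them MPO, CD14 and CSF1R, and 3 were at 10 or more. The erythroid markers were thus far higher than those of the labelled myeloid lineage, the identity of the cells was not settled by these data, and SKM-1 is used here as the labelled name. The sum of that list was 57.2 to 83.3 FPKM in S34F and 79.5 to 98.7 in WT, and its part in the results below was not tested. U2AF1 itself stood at 9.18 to 9.48 FPKM in S34F and 7.65 to 8.70 in WT, a gene-level value that does not tell mutant from wild-type RNA and that can share reads with its near-identical copy U2AF1L5. In bulk RNA, fewer cells of a type and less RNA per cell cannot be told apart.

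Mitochondrial RNA was abundant in both groups. Their share of the summed FPKM was 25.3%, 25.9% and 21.9% in S34F replicates 1, 2 and 3 and 26.9%, 26.0% and 26.9% in WT replicates 1, 2 and 3. The means were 24.4% ± 2.13 in S34F and 26.6% ± 0.518 in WT (SD, n = 3 each). Every S34F library lay below every WT library, S34F replicate 2 only just below WT replicate 2 and S34F replicate 3 far below all. Without S34F replicate 3 the difference between the means shrank from -2.18 to -0.95 percentage points. Counted as fragments rather than FPKM, which gives long genes more weight, the share was 5.73%, 5.92% and 5.09% in S34F and 6.10%, 5.87% and 6.39% in WT. The groups overlapped in this measure, S34F replicate 2 lying above WT replicate 2, and the means were 5.58% ± 0.435 and 6.12% ± 0.262 (SD, n = 3 each).

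All 37 genes passed the filter of a mean FPKM of at least 1 and were tested with limma among 10942 genes. A log2 fold change below 0 (S34F lower) was found for 29 of the 37, including all 13 protein genes (10 of 13 without both replicate 3 libraries), where 45.4% of all genes tested had a log2 fold change below 0. Among the 29, MT-RNR2 (-0.0031) and MT-TC (-0.0025) were close to 0, and their mean FPKM was higher in S34F. Quantile normalization left 24 of the 37 below 0 and put MT-CO1 and MT-CO3 at 0.00 and MT-CO2 at 0.09, whereas the other scalings left 30 of 37 below 0. Quantile normalization gives every library the same values in order of rank, so a gene that keeps its rank is set to 0 whatever its level. Its values for such highly expressed genes therefore cannot show whether their level differed. The median log2 fold change was -0.16 over the 37 genes and 0.01 over all genes tested. An unadjusted p under 0.05 was reached by 6 of the 37, where 2.39% of all genes did. Each of the 6 was lower in S34F, a direction that 1.57% of all genes had at this p. They were MT-ND6 and the tRNA genes MT-TQ, MT-TG, MT-TH, MT-TS2 and MT-TL2. None of the 37 also passed a fold of 1.5, as 0.585% of all genes did. With Benjamini-Hochberg adjustment over all genes tested with limma, 0 of the 37 had an adjusted p under 0.05, as was the case for 0% of all genes (262 genes at an unadjusted p under 0.05), and the adjusted p was 1.00 for each of the 6.

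The count of 6 moved with single libraries, and so did the share of all genes at this p. It was 11 without S34F replicate 3, where 10.6% of all genes had an unadjusted p under 0.05. It was 4 without S34F replicate 1 (2.14% of all genes), 3 without S34F replicate 2 (2.15%) and 3 without WT replicate 2 (1.69%). Leaving out WT replicate 1 left 1 gene (1.51% of all genes), and so did leaving out WT replicate 3 (3.18%), in both cases MT-ND6. Among the 3 without S34F replicate 2, the valine tRNA MT-TV was higher in S34F. MT-ND6 was in every one of these counts. Without S34F replicate 3, 4 of the 37 also passed a fold of 1.5, as 1.65% of all genes did. Without a filter on low values the count was 4 (2.9% of all genes), as it was without the variance trend (2.4%), MT-TH and MT-TG being lost both times. With the replicate number as a block, 9 genes had an unadjusted p under 0.05, all lower in S34F, as 2.46% of all genes were in that fit, and MT-ND4L, MT-ND5 and the arginine tRNA MT-TR were added to the 6.

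In 11 of the 37 genes every S34F library was below every WT library, which 3.73% of all genes showed. These were MT-ND2, MT-ND4L, MT-ND4, MT-ND5 and MT-ND6 among the protein genes and MT-TI, MT-TQ, MT-TR, MT-TH, MT-TS2 and MT-TL2 among the tRNA genes. The opposite order was found in 1 gene, MT-TS1, where 3.66% of all genes showed it. With 3 libraries against 3, the exact permutation test cannot go below a two-sided p of 0.10, which these 12 genes reached.

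**Figure D1:**
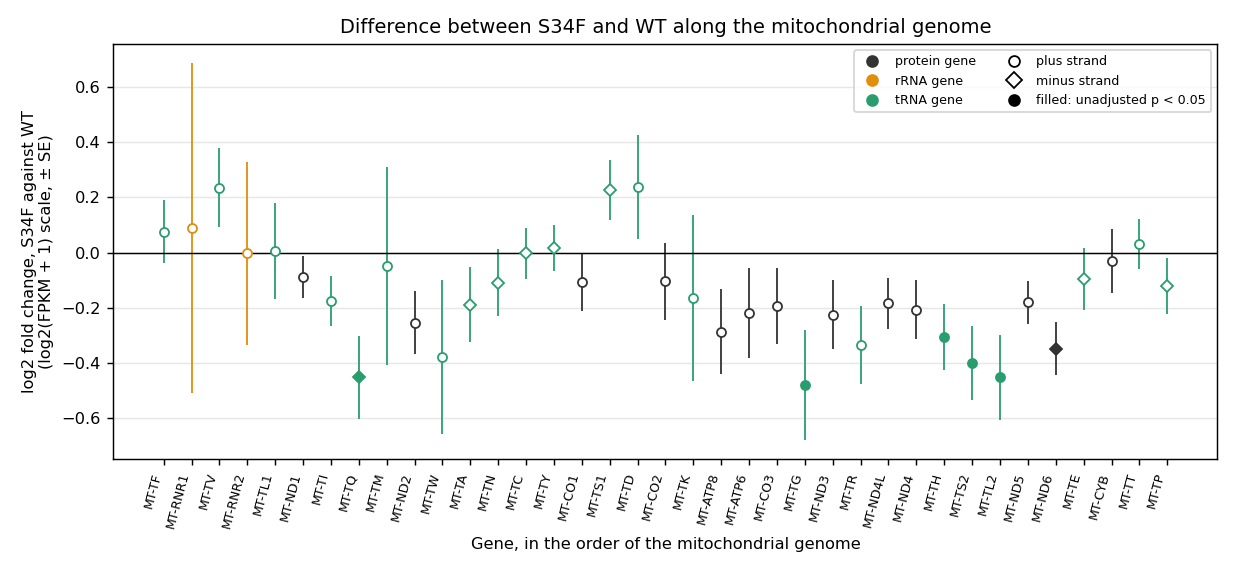
Log2 fold change of S34F against WT on the log2(FPKM + 1) scale (y axis, bars ± SE) for the 37 mitochondrial genes in the order of the genome (x axis), by class and strand, filled where the unadjusted limma p was under 0.05. Of the 37 genes, 29 lie below 0, and 5 of the 6 filled symbols lie between MT-TG and MT-ND6.

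MT-ND6, the complex I subunit that is alone among the protein genes in lying on the minus strand (chrM:14149-14673), was the member with the smallest p. It stood at 1140, 1045 and 1157 FPKM in S34F replicates 1, 2 and 3 and at 1514, 1466 and 1284 in WT. All S34F libraries were below all WT libraries, the lowest WT library being replicate 3. The means were 1114 ± 60.8 FPKM in S34F and 1421 ± 121 in WT (SD, n = 3 each). The log2 fold change was -0.35 (SE 0.096) with an unadjusted limma p of 0.00856 and an adjusted p of 1.00. Its unadjusted p was under 0.05 in 17 of 17 other settings, which changed the scaling, the filter, the pseudocount, the variance model, the block or the libraries, between 0.0034 and 0.0450.

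Relative to MT-ND5, its neighbour on the other strand, MT-ND6 was at 0.901, 0.919 and 0.949 in S34F and 1.10, 1.08 and 0.940 in WT. This ratio does not depend on the scaling of the libraries, and the groups overlapped in it through both replicate 3 libraries. Whether the counting used strand is not stated. Without strand, reads of MT-ND6 and of precursor RNA from the opposite strand cannot be told apart.

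The other complex I subunits were lower in S34F by smaller differences. MT-ND5 (chrM:12337-14148), the longest protein gene, was at 1266, 1137 and 1220 FPKM in S34F and 1381, 1354 and 1366 in WT. MT-ND4 was at 3889, 3730 and 3037 FPKM in S34F and 4184, 4096 and 3956 in WT. MT-ND4L, with which it shares a transcript, was at 4819, 4870 and 4137 FPKM in S34F and 5564, 5155 and 4964 in WT. In these 3 genes no S34F library reached the lowest WT library. The same held for MT-ND2 (chrM:4470-5511), with 4103, 4256 and 3234 FPKM in S34F against 4599, 4560 and 4565 in WT.

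For these 4 genes the log2 fold changes were -0.18 for MT-ND5, -0.21 for MT-ND4, -0.18 for MT-ND4L and -0.25 for MT-ND2, with unadjusted limma p of 0.0545, 0.0952, 0.0887 and 0.0622. None passed in the main fit, without the block. With the replicate block, MT-ND5 and MT-ND4L had unadjusted limma p of 0.0455 and 0.0426. Under quantile normalization, which keeps only ranks, the log2 fold change was -0.09 for MT-ND5 and -0.05 for MT-ND2. Their unadjusted limma p were 0.223 and 0.440. Over all 17 other settings, the p was under 0.05 in 6 for MT-ND5, 3 for MT-ND2, 1 for MT-ND4L and 0 for MT-ND4. MT-ND1 and MT-ND3 overlapped between the groups. MT-ND1 was at 2357, 2489 and 2569 FPKM in S34F and 2660, 2491 and 2733 in WT, a log2 fold change of -0.09. MT-ND3 was at 3272, 3427 and 2539 FPKM in S34F and 3581, 3412 and 3721 in WT, a log2 fold change of -0.23.

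Summed over its 7 mitochondrial subunits, complex I RNA was 20846, 20954 and 17893 FPKM in S34F and 23483, 22533 and 22589 in WT. Every S34F library was below every WT library, and S34F replicate 3 was the lowest. The sum holds the 5 genes without overlap named above, so its order largely follows from theirs and is not a further observation. The median log2 fold change of the 7 genes was -0.21. Within each of the 3 replicate numbers 6 of the 7 were lower in S34F. For all of these but MT-ND1, the lack of overlap already fixes that order, so it adds no evidence.

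The protein genes of complexes III, IV and V overlapped between the groups in 6 of 6 cases, as did 10134 of 10942 genes tested. Their median log2 fold change was -0.15. The 3 cytochrome c oxidase subunits of complex IV were among the most abundant RNAs. MT-CO1, the catalytic core, was at 6805, 7014 and 5504 FPKM in S34F and 6850, 6873 and 6975 in WT. MT-CO2, which takes up electrons from cytochrome c, was at 14845, 16528 and 11374 FPKM in S34F and 15247, 14218 and 16011 in WT. MT-CO3 was at 10966, 11784 and 8248 FPKM in S34F and 11592, 11198 and 12269 in WT. In all 3 genes S34F replicates 1 and 2 lay close to or within the WT values, and S34F replicate 3 lay far below them.

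MT-CYB, cytochrome b of complex III, was at 2127, 2169 and 1712 FPKM in S34F and 2001, 1927 and 2187 in WT. S34F replicates 1 and 2 were above WT replicates 1 and 2, whereas replicate 3 had the opposite order. Its log2 fold change was -0.03 over all libraries and 0.13 without both replicate 3 libraries, where the unadjusted limma p was 0.0256, so its direction turned. MT-ATP6, a membrane subunit of the ATP synthase, was at 1611, 1633 and 1107 FPKM in S34F and 1733, 1521 and 1744 in WT. MT-ATP8, the shortest protein gene, was at 16486, 15620 and 10992 FPKM in S34F and 18226, 16439 and 17162 in WT. The largest negative log2 fold change of these 6 genes was that of MT-ATP8, -0.29 (SE 0.155), with an unadjusted limma p of 0.107.

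**Figure D2:**
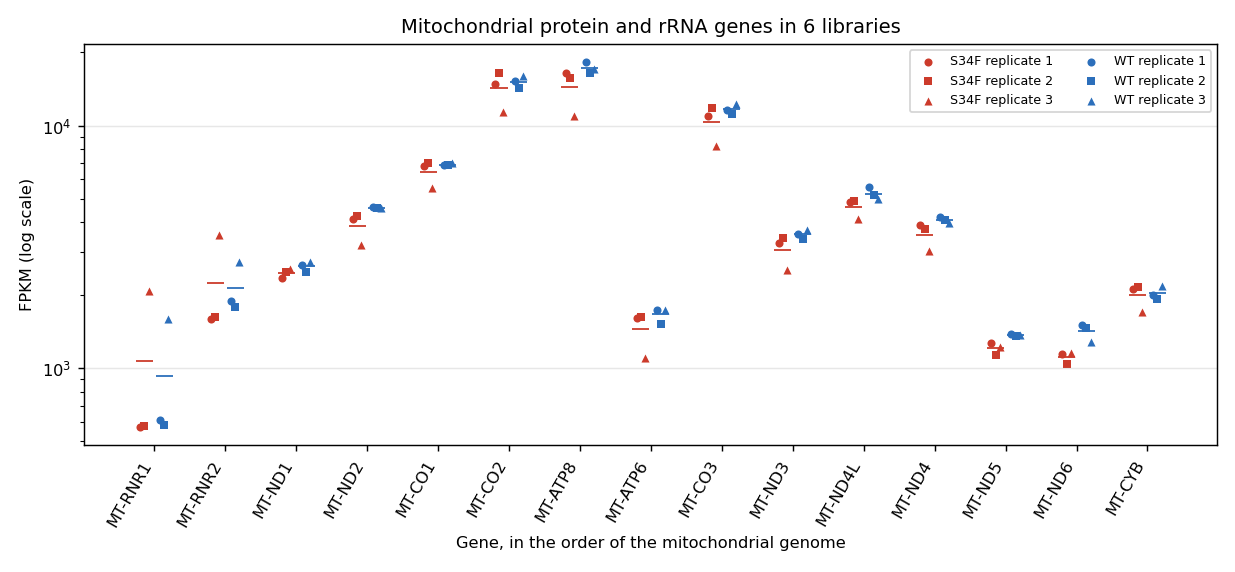
FPKM on a log scale (y axis) of the 13 protein genes and 2 rRNA genes in genome order (x axis) in the 3 S34F and 3 WT libraries, one symbol shape per replicate number, with a line at each group mean. S34F replicate 3 is the lowest library in MT-CO1, MT-CO2, MT-CO3, MT-ATP6, MT-ATP8 and MT-CYB, and both replicate 3 libraries are the highest in the rRNA genes.

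The protein genes spanned a wide range of levels. The highest means over all libraries were 15821 FPKM for MT-ATP8, 14704 for MT-CO2 and 11010 for MT-CO3, and the lowest were 1287 for MT-ND5 and 1268 for MT-ND6. MT-ATP8 and MT-CO2 overlapped in their libraries, as did MT-ND5 and MT-ND6, of which MT-ND6 had the lower mean in S34F and MT-ND5 in WT. MT-ATP8 and MT-ATP6 are carried on a single mRNA, yet MT-ATP8 was 9.57 to 10.8 times as high as MT-ATP6 in every library. MT-ND4L and MT-ND4, which also share an mRNA, differed by a ratio of 1.24 to 1.36.

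The rRNA genes set both replicate 3 libraries apart. MT-RNR1, the small-subunit rRNA (chrM:648-1601), was at 572, 578 and 2074 FPKM in S34F and 611, 586 and 1593 in WT. MT-RNR2, the large-subunit rRNA (chrM:1671-3229), was at 1597, 1626 and 3542 FPKM in S34F and 1889, 1789 and 2740 in WT. In each group replicate 3 was high and replicates 1 and 2 were close together. MT-RNR1 in replicate 3 was 3.60 times the mean of replicates 1 and 2 in S34F and 2.66 times in WT, and MT-RNR2 was 2.20 and 1.49 times as high. The ratio of MT-RNR1 to MT-RNR2, which no library scaling touches, was 0.358, 0.356 and 0.586 in S34F and 0.323, 0.328 and 0.581 in WT.

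Between the groups the rRNA genes did not pass the test. Their log2 fold changes were 0.09 (SE 0.597) for MT-RNR1 and -0.0031 (SE 0.332) for MT-RNR2, with unadjusted limma p of 0.885 and 0.993. Without both replicate 3 libraries, MT-RNR2 was lower in S34F with a log2 fold change of -0.19 and an unadjusted limma p of 0.0112. The 13 protein genes summed to 73686, 75702 and 56831 FPKM in S34F and to 79132, 74708 and 78937 in WT. Unlike the rRNA sum, this sum was low in replicate 3 of S34F alone, at 0.761 times the mean of replicates 1 and 2, against 1.03 times in WT.

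**Figure D3:**
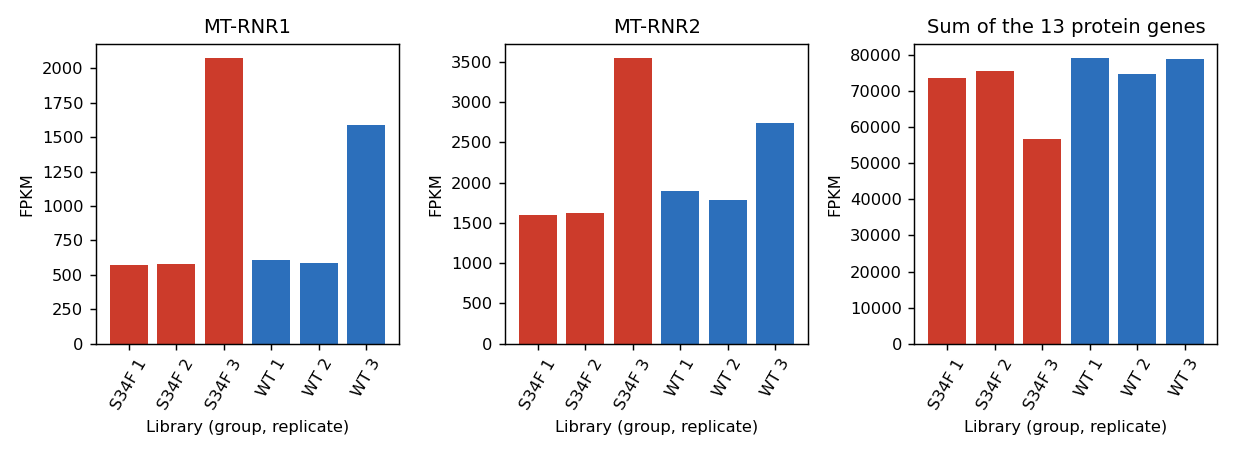
FPKM (y axes, from 0) of MT-RNR1, of MT-RNR2 and of the sum of the 13 protein genes in each of the 6 libraries (x axes). Replicate 3 has the highest bar of its group for both rRNA genes in S34F and WT, and the lowest bar for the protein genes in S34F.

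Removing both replicate 3 libraries changed how many members passed, and this comparison was chosen after the values were seen. With 2 libraries in each group, 17 of 37 genes had an unadjusted limma p under 0.05, as did 16.9% of all genes in that fit. Of these, 15 were lower in S34F, as 8.66% of all genes were at this p, and 2, MT-CYB and MT-TS1, were higher, as 8.29% of all genes were. The 15 were MT-ND2, MT-ND4, MT-ND4L, MT-ND5 and MT-ND6, MT-RNR2, and the tRNA genes MT-TI, MT-TQ, MT-TW, MT-TK, MT-TG, MT-TR, MT-TS2, MT-TL2 and MT-TE. The fold also exceeded 1.5 in 3 of the 17, as it did in 1.71% of all genes, and 0 of 37 had an adjusted p under 0.05. The median log2 fold change of the 6 protein genes of complexes III, IV and V was then 0.0043, and that of the 7 complex I genes was -0.13. Of the 13 protein genes, 10 were then below 0. The log2 fold change went from -0.11 to 0.0099 for MT-CO1, from -0.10 to 0.09 for MT-CO2 and from 0.09 to -0.06 for MT-RNR1, and none of these passed the test in either fit.

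Mitochondrial tRNAs decode all codons of the 13 mRNAs, and several also act as the cutting marks of the precursors. Their genes are shorter than a usual sequencing fragment, so reads assigned to them can extend into the neighbouring genes, and FPKM over so short a length is imprecise. Summed over the 22 genes, tRNA FPKM was 10740, 11183 and 11212 in S34F and 11982, 12455 and 11701 in WT, without overlap. As a share of the summed FPKM the groups overlapped, S34F replicate 3 at 3.34% lying above WT replicate 3 at 3.31%. The 4 adjoining minus-strand genes for alanine, asparagine, cysteine and tyrosine tRNAs, MT-TA, MT-TN, MT-TC and MT-TY, made up 59.9% to 71.0% of that sum. Each of the 4 was between 1368 and 3084 FPKM, whereas no other tRNA gene exceeded 709 FPKM in any library. They lie opposite the plus-strand precursor between MT-ND2 and MT-CO1, and without strand their reads and those of the precursor cannot be told apart.

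MT-TS2, which carries serine, was at 506, 398 and 558 FPKM in S34F and 637, 623 and 653 in WT. MT-TL2, which carries leucine, was at 356, 303 and 461 FPKM in S34F and 493, 496 and 522 in WT. MT-TH, which carries histidine, was at 391, 301 and 384 FPKM in S34F and 436, 438 and 447 in WT. In this run of 3 tRNA genes S34F replicate 2 was always the lowest library, no S34F library reached the WT libraries, and the WT libraries were close together.

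MT-TG, which carries glycine, was at 203.3, 166 and 290 FPKM in S34F and 296, 282 and 320 in WT, so that S34F replicate 3 lay above WT replicate 2. MT-TQ, which carries glutamine, was at 24.9, 27.4 and 36.1 FPKM in S34F and 41.2, 37.6 and 42.0 in WT, without overlap. The largest of these differences in log2 terms was that of MT-TG. The lowest MT-TQ value rests on about 37 fragments. MT-TQ also lies opposite the plus-strand precursor, and without strand their reads cannot be told apart.

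The log2 fold changes were -0.40 (SE 0.134) for MT-TS2, -0.45 (SE 0.155) for MT-TL2 and -0.30 (SE 0.120) for MT-TH, with unadjusted limma p of 0.0207, 0.0230 and 0.0392. They were -0.48 (SE 0.199) for MT-TG and -0.45 (SE 0.151) for MT-TQ, with unadjusted limma p of 0.0476 and 0.0207. The adjusted p was 1.00 for all 5. Each of the 5 was lower in S34F within each of the 3 replicate numbers, which the lack of overlap already fixes for all but MT-TG. Leaving out S34F replicate 2, WT replicate 1 or WT replicate 3 took the p of all 5 above 0.05, to between 0.0513 and 0.1413. Without a filter or without the variance trend, MT-TG (0.0635 and 0.0517) and MT-TH (0.0505 and 0.0507) were above 0.05 by limma.

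Among the other tRNA genes, MT-TR, which carries arginine, was at 392, 318 and 460 FPKM in S34F and 474, 477 and 509 in WT. Its unadjusted limma p was 0.0507, and 0.0265 with the replicate block. MT-TI, which carries isoleucine, was at 139, 145 and 157 FPKM in S34F and 169, 167 and 162 in WT, without overlap, with an unadjusted limma p of 0.0959. MT-TW, which carries tryptophan, was at 24.1, 30.0 and 55.0 FPKM in S34F and 44.0, 44.5 and 45.7 in WT. Its S34F replicates 1 and 2 were below all WT libraries and its replicate 3 above them, and without both replicate 3 libraries its log2 fold change went from -0.38 to -0.70.

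MT-TS1, a second serine tRNA gene on the minus strand (chrM:7446-7514), was the only member with all S34F libraries above all WT libraries. It was at 12.2, 11.7 and 11.2 FPKM in S34F and 10.4, 10.5 and 8.78 in WT, the lowest level of the 37 genes. Its lowest value rests on about 15 fragments, and the unadjusted limma p was 0.0803. MT-TV and MT-TD, for valine and aspartate, had log2 fold changes of 0.23 and 0.24 with overlapping libraries. The methionine tRNA MT-TM and the lysine tRNA MT-TK were high in replicate 3 of both groups, at 1.75 and 2.15 times the mean of replicates 1 and 2 for MT-TM and at 1.89 and 1.61 times for MT-TK in S34F and WT. The remaining 9 tRNA genes had unadjusted limma p between 0.212 and 0.979.

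**Figure D4:**
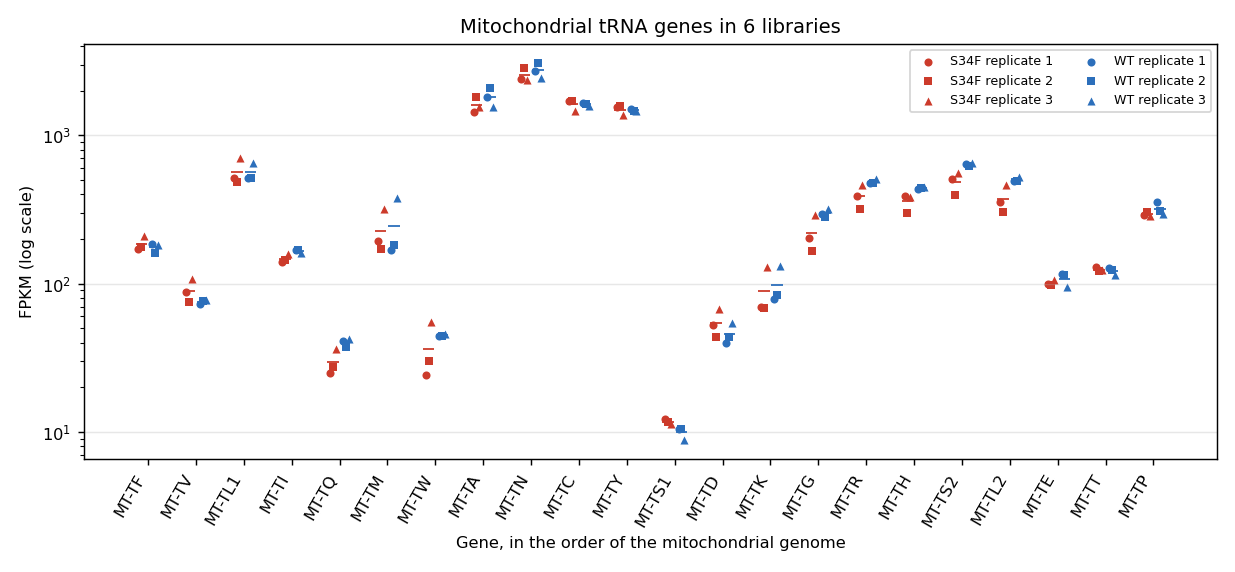
FPKM on a log scale (y axis) of the 22 tRNA genes in genome order (x axis) in the 3 S34F and 3 WT libraries, one symbol shape per replicate number, with a line at each group mean. MT-TA, MT-TN, MT-TC and MT-TY stand above all other tRNA genes, and MT-TH, MT-TS2 and MT-TL2 show S34F below WT without overlap.

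Of the 6 genes with an unadjusted p under 0.05, all but MT-TQ lay in a single stretch of the map. The stretch from MT-TG to MT-ND6 holds 10 genes, 5 of them complex I subunits, and was chosen after the values were seen, so no test was made. All 10 had log2 fold changes below 0, with a median of -0.32, 8 of 10 had S34F below WT without overlap (3.73% of all genes), and 5 had an unadjusted p under 0.05 (2.39% of all genes). In the other 27 genes the median was -0.10, 3 had S34F below WT without overlap, and 1, MT-TQ, had an unadjusted p under 0.05. By strand, the median log2 fold change of the tRNA genes was -0.17 for the 14 on the plus strand and -0.10 for the 8 on the minus strand. Across the 37 genes, which share libraries and precursors, Spearman's rho of the log2 fold change was 0.15 with GC content, -0.01 with length and -0.15 with mean FPKM.

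Nuclear copies of mitochondrial sequence can take up reads of the true genes. Of 56 such copies in the table, counting pseudogenes and MTRNR2L genes, 8 had a mean FPKM of at least 1 and were tested. Their unadjusted limma p lay between 0.0779 and 0.697. With so few genes, a count of 0 under 0.05 cannot be told from the 2.39% of all genes. The highest was MTATP6P1 (chr1:633696-634376), whose sequence matched MT-ATP6 in 98.5% of 681 bases, with 10 mismatches and a longest identical run of 141 bases. It was at 1333, 1253 and 892 FPKM in S34F and 1325, 1225 and 1398 in WT, between 0.765 and 0.827 times MT-ATP6 in every library. Its values thus moved with those of MT-ATP6, S34F replicate 3 being low in both.

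MTND2P28 (chr1:629640-630683), 98.4% identical to MT-ND2, was at 579, 336 and 526 FPKM in S34F and 672, 405 and 693 in WT. MTCO1P12 (chr1:631074-632616), 98.7% identical to MT-CO1, was at 277, 133 and 293 FPKM in S34F and 254, 165 and 354 in WT. Both were lowest in replicate 2 of each group, whereas MT-ND2 and MT-CO1 were lowest in replicate 3 of S34F and, in WT, differed little between libraries. Their ratios to these genes were 0.079 to 0.163 and 0.019 to 0.053. MTCO2P2 and MTND1P23 had mean FPKM of 20.1 and 19.5. How the counting treated reads that match several places is not stated, so levels of MT-ATP6 in particular are uncertain. The sum of MT-ATP6 and MTATP6P1 was still only 0.167 to 0.185 times MT-ATP8.

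**Figure D5:**
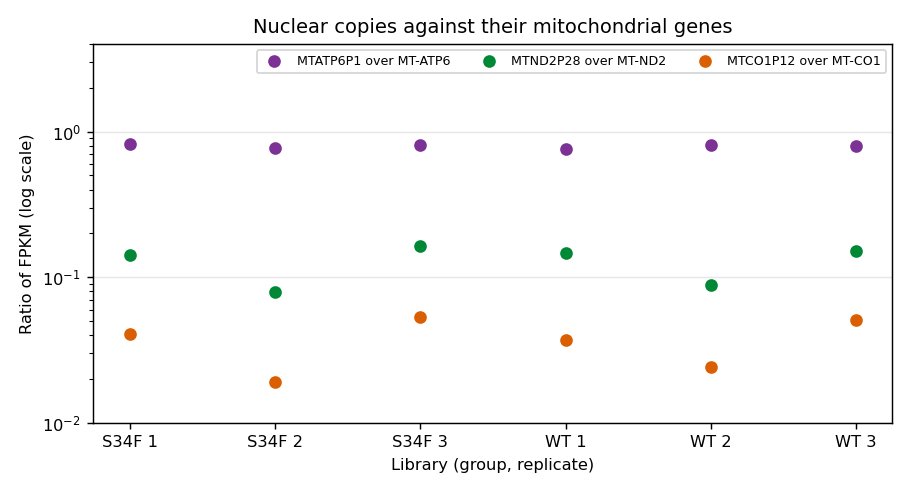
Ratio of the FPKM of 3 nuclear copies to that of their mitochondrial genes on a log scale (y axis) in each of the 6 libraries (x axis). MTATP6P1 stays at 0.765 to 0.827 times MT-ATP6, whereas the ratios of MTND2P28 and MTCO1P12 are lowest in replicate 2 of both groups.

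The nuclear genes that serve the mitochondrial genome were listed by role, from DNA maintenance to translation, and 94 of 97 were tested. An unadjusted p under 0.05 was found for 1 of the 94 (1.06%), which so small a count cannot tell from the 2.39% of all genes. The median log2 fold change of the 94 was 0.04. The gene was TRMT61B, a methyltransferase of mitochondrial tRNA and rRNA, at 5.84, 5.44 and 5.61 FPKM in S34F and 3.84, 4.65 and 4.52 in WT, without overlap. Its log2 fold change was 0.32 (SE 0.107) with an unadjusted limma p of 0.0220 and an adjusted p of 1.00. The count of 1 became 0 without S34F replicate 1, 2 without S34F replicate 2, WT replicate 2 or WT replicate 3, and 6 without S34F replicate 3, where 10.6% of all genes had such a p.

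By role, 0 of 14 DNA maintenance genes, 0 of 8 transcription genes, 0 of 20 RNA processing, stability and decay genes, 1 of 17 tRNA and rRNA modification genes, 0 of 15 translation factors and 0 of 20 aminoacyl-tRNA synthetase genes had an unadjusted limma p under 0.05. The smallest unadjusted limma p in each of the other lists was 0.180 for POLG2, the accessory subunit of the DNA polymerase, 0.0906 for MTERF4, a factor of ribosome assembly, and 0.212 for PDE12, a nuclease that removes poly(A) tails. It was 0.0546 for the release factor MTRFR, listed under its older name, and 0.263 for GATC, a subunit of the amidotransferase that completes glutamine tRNA. MTRFR had a log2 fold change of 0.40 and MTERF4 of -0.33, and neither passed the test.

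The nuclear partners of the 13 mitochondrial proteins were split, with 37 of 74 log2 fold changes below 0 and a median log2 fold change of 0.0002. Of the 74, 1 (1.35%) had an unadjusted p under 0.05, beside 2.39% of all genes. This was NDUFA6, an accessory subunit of complex I, 1 of 37 nuclear complex I genes (2.70%). It was at 39.4, 42.5 and 50.5 FPKM in S34F and 31.8, 32.7 and 39.7 in WT, with S34F replicate 1 just below WT replicate 3. Its log2 fold change was 0.34 (SE 0.139), with an unadjusted limma p of 0.0461 and an adjusted p of 1.00. None of 9 complex III, 11 complex IV and 17 complex V genes had an unadjusted limma p under 0.05, and the smallest p were those of UQCRFS1 (0.0985), COX5B (0.122) and ATP5F1D (0.0961). Under median-ratio, upper quartile and quantile scaling 0 of the 74 had an unadjusted p under 0.05, as was the case without S34F replicate 2, WT replicate 1 or WT replicate 2, and without S34F replicate 3 it was 9, near the 10.6% of all genes in that fit. Without both replicate 3 libraries, 17 of the 74 subunit genes and 16 of the gene expression genes tested had an unadjusted p under 0.05, beside 16.9% of all genes in that fit.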

How the data were processed

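Total RNA of SKM-1 cells was sequenced in 6 libraries, 3 S34F and 3 WT, grouped by the sample titles. The authors deposited 1 table with FPKM for each gene and library, although its name speaks of raw counts. Its fold changes, p-values and q-values are the authors' own comparison and were not used. The submitters' processing notes name StringTie, and the aligner, RNA selection and genome build are not given in the sources used here. FPKM carry no counts, and depth is approximate.

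The members and the gene lists were chosen with earlier results of these data known. Genes whose FPKM averaged 1 or more over all libraries were tested on log2(FPKM + 1), which understates the change of low genes, with limma (two-sided, mean-variance trend) without a replicate block, and p-values were adjusted over all 10942 genes by the Benjamini-Hochberg method. Named genes were all members, the 5 highest pseudogenes, and of each nuclear list the gene with the smallest p and those with an unadjusted p under 0.05. Coordinates and sequences were read from GENCODE 29 (GRCh38), where 31002 of the 31142 identifiers were found. Anticodons were located by a script from the anticodon stem, and in MT-TS2 from the only place in its sequence where a T precedes the anticodon.

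Same-numbered libraries of both groups deviated together across all genes tested (correlation 0.212, 0.174 and 0.380), each above 0.1, and the study speaks of pairs. The main fit took no account of the replicate numbers, and the fit with the replicate block is given beside it. S34F replicate 2 with WT replicate 1 (0.197) and S34F replicate 1 with WT replicate 2 (0.134) also correlated, so the deviations set replicate 3 apart and leave the pairing of replicates 1 and 2 undetermined. Alternatives were other scalings, filters, pseudocounts, variance models, the replicate block, and each library left out. The limma step was tested on simulated data. The tools were limma 3.58.1 in R 4.3.3, and scipy 1.17.1, pandas 2.3.3, matplotlib 3.10.9, Biopython 1.88 and numpy 2.4.6 in Python 3.11.15.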

Additional observations from a re-analysis of the deposited data

How the results depend on the processing

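Of the counts, the 0 mitochondrial genes with an adjusted p under 0.05 held in every alternative run. The 6 with an unadjusted p under 0.05 became 4 without a filter or without the variance trend. They became 7 under upper quartile scaling or quantile normalization, and 8 when scaled to the genes outside the mitochondrial genome or with a smaller pseudocount. In the fits of the last sentence 259 to 276 of all genes tested had such a p. The count was 1 to 11 when single libraries were left out and 17 without both replicate 3 libraries. The 0 with a fold over 1.5 became 0 to 4 and 3 there. The median log2 fold change ranged from -0.18 to -0.05, and quantile normalization left 24 of 37 genes below 0, with MT-CO1 and MT-CO3 at 0.00 and MT-CO2 at 0.09. That method sets a gene that keeps its rank to 0, so it cannot show a change in the level of such a gene. The difference in share was -2.92 to -0.95 percentage points with single libraries left out and -0.53 in fragments. With the replicate block, 9 mitochondrial genes and 2 nuclear gene expression genes had an unadjusted p under 0.05, and no count of adjusted p changed.

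The 1 nuclear gene expression gene became 2 under quantile normalization and 0 to 6 with single libraries left out. The count was 16 without both replicate 3 libraries and 2 under median-ratio scaling with the block. It was 0 at a mean FPKM of at least 5, a filter that leaves TRMT61B itself untested. The 1 nuclear subunit became 0 under median-ratio, upper quartile and quantile scaling, 0 to 9 with single libraries left out and 17 without both replicate 3 libraries. MT-CYB turned to 0.13 without both replicate 3 libraries. MT-CO1, MT-CO2, MT-RNR1 and the tRNA genes MT-TL1, MT-TM, MT-TC and MT-TT, called in neither fit, also changed sign there. The fits without both replicate 3 libraries and with median-ratio scaling and the block were chosen after seeing the data. Causes were not tested. Fits with 2 libraries in a group rest on pooled variances.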
